A study of Mus musculus with 4 samples.

Results

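The 37 genes described here encode integrin receptors and basement membrane proteins: 23 integrin subunits, 10 laminin chains, 2 nidogens, perlecan (Hspg2) and agrin (Agrn). They were taken by symbol from the deposited table of 24346 genes, and all 37 were in it. The table holds RNA levels as FPKM (fragments per kilobase of transcript, scaled to the depth of the library) in 4 libraries of endothelial cells, purified by flow cytometry from the heart of mice labelled young, of C57BL/6 background, and not cultured. In 2 libraries, ECp53KO_170 and ECp53KO_172, the genotype label is ECp53KO, which the labels do not spell out. The series title concerns endothelial p53, the tumour suppressor encoded by Trp53. The other 2, Ctrl_178 and Ctrl_182, are labelled wild type. The labels name no Cre driver, floxed allele or age in weeks, and do not say whether a library is 1 mouse or a pool, so the p-values below measure only the spread between these libraries, which may be technical.

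Integrins are receptors made of 1 alpha and 1 beta subunit. They bind matrix proteins outside the cell and the actin cytoskeleton inside it, and the pairing sets the ligand. Laminins are cross-shaped trimers of 1 alpha, 1 beta and 1 gamma chain that form the sheet on which endothelial cells sit, nidogens link this sheet to the collagen IV network, and perlecan and agrin are heparan sulfate proteoglycans that tie it to growth factors and to the cell surface. In blood vessels the laminins with the alpha chains of Lama4 and Lama5 predominate, and the integrin chain encoded by Itgb1 is required for stable vessels.

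Trp53, the targeted gene, was listed at 4.41 and 2.45 FPKM for ECp53KO_170 and ECp53KO_172, against 52.1 and 28.8 FPKM for Ctrl_178 and Ctrl_182 (limma adjusted p = 0.146). Estimated depth was 9800000 to 11400000 fragments in both ECp53KO libraries and Ctrl_178, and 22500000 in Ctrl_182. The 12 endothelial markers summed to 6549 to 6848 FPKM in every library, with Cdh5 (VE-cadherin) at 958 to 1098 FPKM. ECp53KO_170 stood apart from the other libraries. Relative to the mean of the other 3 libraries, its log2(FPKM + 1) had a median of 0.334 over tested genes with transcripts under 1500 nucleotides and of -0.217 over those with more than 6000. Its 12 cardiomyocyte markers summed to 467 FPKM, against 272 in ECp53KO_172, 264 in Ctrl_178 and 247 in Ctrl_182. Its 8 erythroid markers summed to 457 FPKM, against 95.7, 64.5 and 37.4 FPKM in the same order. Both sums were thus above the controls in ECp53KO_172 as well, by little for the cardiomyocyte markers. Among these, Myl2 overlapped (145 and 81.1 against 81.8 and 66.0 FPKM). In both ECp53KO libraries, the sum of 12 pericyte and smooth muscle markers was above the controls (188 and 153 against 102 and 122 FPKM), and the sum of 8 endocardial markers below them (54.7 and 63.6 against 72.9 and 87.7 FPKM). Not every marker followed its sum: the endocardial Nfatc1 overlapped (11.4 and 22.3 against 21.6 and 19.2 FPKM), and 1 pericyte or smooth muscle marker was at 0 in ECp53KO_172. Xist was at 0.0230 FPKM in ECp53KO_170 and 0.0352 in Ctrl_178 but at 23.1 in ECp53KO_172 and 23.9 in Ctrl_182, so each genotype held 1 low and 1 high library. In bulk RNA, a lower share of 1 cell type and less RNA in each of its cells cannot be told apart.

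Levels were compared on the scale of log2(FPKM + 1) wherever the mean over the 4 libraries reached 1 FPKM, as it did for 22 of the 37 members and 11332 genes in all. On this scale every fold change below is ECp53KO minus Ctrl. By limma with Benjamini-Hochberg adjustment over all tested genes, 0 members were called lower and 0 higher at an adjusted p under 0.05. Of all tested genes, 0.0882% were called lower and 0.0265% higher. Most of the genes called were microRNA or small nucleolar RNA loci, and the targeted Trp53 was not called. A count of 0 among 22 members is therefore weak evidence of no change. The limma adjusted p of the members ran from 0.864 to 0.999. At an unadjusted limma p under 0.05, 2 members were lower (Nid2 and Lamc1; 2.82% of all tested genes) and 1 higher (Itgb5; 1.97%). On leaving out each library in turn, the fold change of Nid2 ran from -1.52 to -0.52 and that of Lamc1 from -1.09 to -0.37. That of Itgb5 ran from 0.48 to 0.57. The median fold change over the 22 members was -0.22, against 0.01 over all tested genes, with 15 values below 0 and 7 above. It was -0.05 on leaving out ECp53KO_170 and -0.38 on leaving out ECp53KO_172.

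The groups did not overlap in 9 members. Both ECp53KO libraries were below both controls in 7 (Lamc1, Nid2, Lama5, Itgb3, Itgb4, Itgav and Itga1), a pattern found in 16.8% of all tested genes. This count was 4 after rescaling to TPM or at a mean of at least 5 FPKM, and 11 with no filter. The share of all tested genes was not taken under these alternatives. Taken alone, ECp53KO_170 was below both controls in 8 of the 12 tested integrins and 9 of the 10 other tested members. The share over all tested genes was 35.7%. For ECp53KO_172 alone these were 4, 3 and 33.5%. Both ECp53KO libraries were above both controls in 2 (Itgb5 and Itga10), a pattern found in 19.1% of all tested genes. The count of 2 was 1 at a mean of at least 5 FPKM. ECp53KO_170 alone was above both controls in 3 integrins and 0 of the other members, against 42.5% of all tested genes. For ECp53KO_172 alone these were 4, 1 and 33.1%. The receptors and the matrix differed in their medians: -0.03 over the 12 tested integrin subunits and -0.49 over the 10 tested laminins, nidogens and proteoglycans. Without ECp53KO_170 the matrix median was -0.11, and without ECp53KO_172 it was -0.84.

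**Figure D1:**
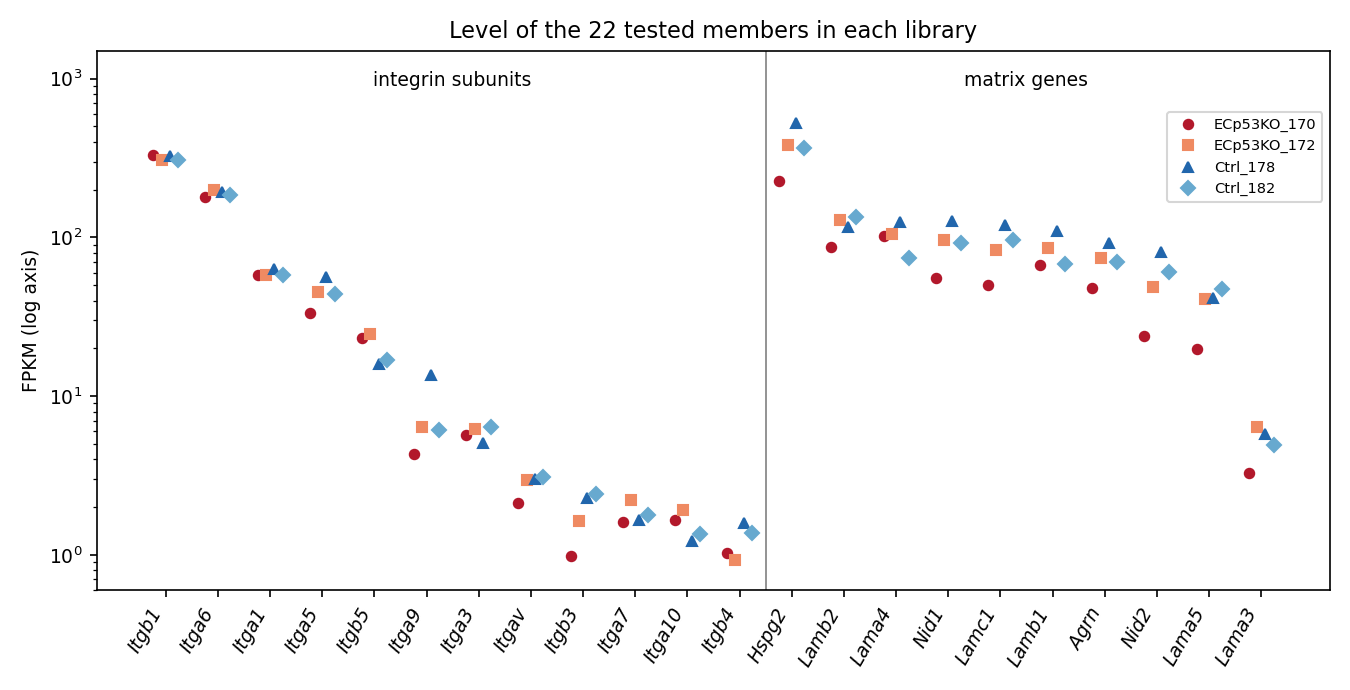
FPKM on a log axis of the 22 tested members, with 1 symbol for each library, integrin subunits left of the line and matrix genes right of it, each ordered by mean level. Itgb1 and Hspg2 lead the 2 families, ECp53KO_170 (dark red circles) is lowest in 9 of the 10 matrix genes, and Itgb5 is higher in both ECp53KO libraries than in both controls.

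Among the beta subunits Itgb1, the partner of most matrix-binding alpha chains, was by far the most abundant. It was at 331 FPKM for ECp53KO_170, 308 for ECp53KO_172, 324 for Ctrl_178 and 307 for Ctrl_182, or 91.8% to 94.2% of the summed beta subunit level in each library. The groups overlapped, with a log2 fold change of 0.02 ± 0.19 (SE; 95% interval -0.46 to 0.49; limma adjusted p = 0.988). Itgb5, whose product pairs with the alpha V subunit to bind vitronectin, was second. The gene lies on chromosome 16 (33829665 to 33949338, plus strand, GRCm38). It stood at 23.3 and 24.8 FPKM in ECp53KO, against 15.9 and 17.0 FPKM in Ctrl. Both ECp53KO libraries were thus above both controls, at means of 24.1 ± 1.04 against 16.5 ± 0.786 FPKM (SD, n = 2 each). The log2 fold change of Itgb5 was 0.52 ± 0.15 (SE; limma adjusted p = 0.864, unadjusted p = 0.0153), and it was 0.42 to 0.57 under every alternative. Its share of the summed beta subunit level was 6.53% and 7.40% in ECp53KO and 4.62% and 5.18% in Ctrl.

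Itgb3, another partner of alpha V and also the platelet beta subunit, was lower in both ECp53KO libraries, at 0.978 and 1.63 against 2.28 and 2.42 FPKM. Its log2 fold change was -0.56 ± 0.25 (SE; limma adjusted p = 0.864). The sums of the 12 platelet markers overlapped (25.7 and 11.3 against 20.8 and 17.6 FPKM). Of the 2 most abundant, Nrgn was lower in both ECp53KO libraries (8.30 and 7.04 against 11.4 and 10.9 FPKM), and Pf4 overlapped (6.57 and 0.487 against 5.30 and 1.94 FPKM). Treml1 was at 0 in all libraries. The part of these markers in the Itgb3 values was not tested. Itgb4, the partner of the alpha 6 subunit in hemidesmosomes, stood at 1.03 and 0.934 FPKM in ECp53KO, against 1.58 and 1.37 FPKM in Ctrl. The common alpha partner Itgav stood at 2.11, 2.98, 3.02 and 3.07 FPKM in the 4 libraries, so its lower group rested on ECp53KO_170 (log2 fold change -0.20 with all libraries and -0.03 without it).

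The alpha subunits were led by Itga6, a laminin receptor chain, which made up 56.9% to 62.3% of the summed alpha level. Itga6 stood at 181 and 200 FPKM in ECp53KO, against 193 and 186 FPKM in Ctrl. The controls lay between the ECp53KO libraries, and the log2 fold change was 0.00 ± 0.17 (SE; 95% interval -0.44 to 0.44; limma adjusted p = 0.999). Itga1, which binds collagen IV together with the Itgb1 product, stood at 58.1, 58.3, 63.2 and 58.3 FPKM. Although its ECp53KO values were both below the controls, ECp53KO_172 and Ctrl_182 differed by less than 0.1 FPKM, and the log2 fold change was -0.06 ± 0.15 (SE; limma adjusted p = 0.943). Itga5, the chain of the fibronectin receptor, stood at 33.4 and 45.4 FPKM in ECp53KO, against 56.4 and 44.0 FPKM in Ctrl, with overlap and a log2 fold change of -0.35 ± 0.22 (SE; limma adjusted p = 0.864). Only ECp53KO_170 was below both controls. The fold change of Itga5 was -0.13 on leaving out ECp53KO_170 and -0.17 on leaving out Ctrl_178.

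The remaining tested alpha subunits were at 1 to 14 FPKM. Itga9, which is needed for lymphatic valves, stood at 13.6 FPKM in Ctrl_178 and at 4.33 to 6.36 FPKM in the other libraries (log2 fold change -0.70 ± 0.39 SE, and -0.19 without Ctrl_178). The 7 lymphatic endothelial markers also summed highest in Ctrl_178 (68.1 FPKM, against 48.2 to 62.8 FPKM), and their part in the Itga9 values was not tested. The laminin-binding chains Itga3 (5.10 to 6.41 FPKM) and Itga7 (1.62 to 2.21 FPKM) had overlapping groups, with log2 fold changes of 0.05 and 0.09. Itga10, a collagen-binding chain, was at 1.67 and 1.91 FPKM in ECp53KO, against 1.23 and 1.36 FPKM in Ctrl (log2 fold change 0.28 ± 0.22 SE). Its exons overlap those of Gm42957 on the same strand over 1739 nucleotides in the GENCODE M21 annotation.

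Of the laminin chains, the alpha chain Lama4 stood at 102 and 105 FPKM in ECp53KO, against 126 and 74.7 FPKM in Ctrl. The controls lay on either side of the ECp53KO libraries, and the log2 fold change was 0.10 ± 0.28 (SE; limma adjusted p = 0.954). Lama5, the alpha chain of the laminin that arrives later in vessel maturation, stood at 19.8 and 40.8 FPKM in ECp53KO, against 41.5 and 47.3 FPKM in Ctrl. ECp53KO_170 alone was far below, since ECp53KO_172 was within 1 FPKM of Ctrl_178. The log2 fold change of Lama5 was -0.62 ± 0.35 (SE; limma adjusted p = 0.864) and -0.12 without ECp53KO_170. Lama4 took 81.1% and 68.9% of the summed laminin alpha level in ECp53KO and 72.4% and 58.8% in Ctrl, and Lama5 took 15.8%, 26.6%, 23.9% and 37.2%. These shares overlapped between the groups. Lama3, an alpha chain best known from epithelia, followed at 3.28 to 6.40 FPKM, while all 6 epithelial markers were under 1 FPKM on average.

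Both beta chains were abundant and neither separated the groups. Lamb1 stood at 66.6 and 85.3 FPKM in ECp53KO, against 109 and 68.3 FPKM in Ctrl (log2 fold change -0.19 ± 0.28 SE; limma adjusted p = 0.906). Lamb2 stood at 87.1 and 129 FPKM in ECp53KO, against 116 and 135 FPKM in Ctrl (-0.23 ± 0.24 SE; limma adjusted p = 0.876). Lamc1, the gamma chain shared by nearly all vascular laminins, gave 99.9% or more of the summed gamma level in each library. The gene lies on chromosome 1 (153218922 to 153332786, minus strand, GRCm38). It stood at 49.9 and 83.1 FPKM in ECp53KO, against 119 and 97.0 FPKM in Ctrl. Both ECp53KO libraries were below both controls, at means of 66.5 ± 23.5 and 108 ± 15.7 FPKM (SD, n = 2 each). The log2 fold change of Lamc1 was -0.73 ± 0.28 (SE; limma adjusted p = 0.864, unadjusted p = 0.0487). It was -0.37 without ECp53KO_170 and -0.63 with the length trend of each library removed.

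The nidogens and proteoglycans, which join laminin to the rest of the sheet, all had negative fold changes (4 of 4, median -0.57). Nid2, on chromosome 14 (19751257 to 19811787, plus strand, GRCm38), stood at 23.8 and 48.4 FPKM in ECp53KO, against 81.1 and 60.1 FPKM in Ctrl, the largest fold change of the 22 tested members. The means were 36.1 ± 17.4 and 70.6 ± 14.8 FPKM (SD, n = 2 each), a ratio of 1.96 in favour of Ctrl. On the log2 scale the difference was -1.02 ± 0.37 (SE; limma adjusted p = 0.864, unadjusted p = 0.0377), with -0.52 without ECp53KO_170 and -0.80 without Ctrl_178. The libraries kept no strand, and exons of Nid2 overlap those of Rtraf on the opposite strand over 437 nucleotides in the GENCODE M21 annotation. Nid1 stood at 55.5 and 95.9 FPKM in ECp53KO, against 127 and 92.4 FPKM in Ctrl (log2 fold change -0.56 ± 0.32 SE; limma adjusted p = 0.864), with ECp53KO_172 between the controls.

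Hspg2, which encodes perlecan, was the most abundant member of all and the longest, with a transcript of 14187 nucleotides. It stood at 227 and 381 FPKM in ECp53KO, against 525 and 365 FPKM in Ctrl (log2 fold change -0.57 ± 0.34 SE; limma adjusted p = 0.864). Agrn stood at 47.9 and 74.4 FPKM in ECp53KO, against 92.9 and 69.5 FPKM in Ctrl (-0.42 ± 0.27 SE; limma adjusted p = 0.864). In both genes ECp53KO_170 was lowest, Ctrl_178 highest and the other 2 libraries close together. Without ECp53KO_170 the log2 fold change was -0.20 for Hspg2, -0.11 for Agrn and -0.17 for Nid1. Without Ctrl_178 it was -0.31, -0.22 and -0.34.

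**Figure D2:**
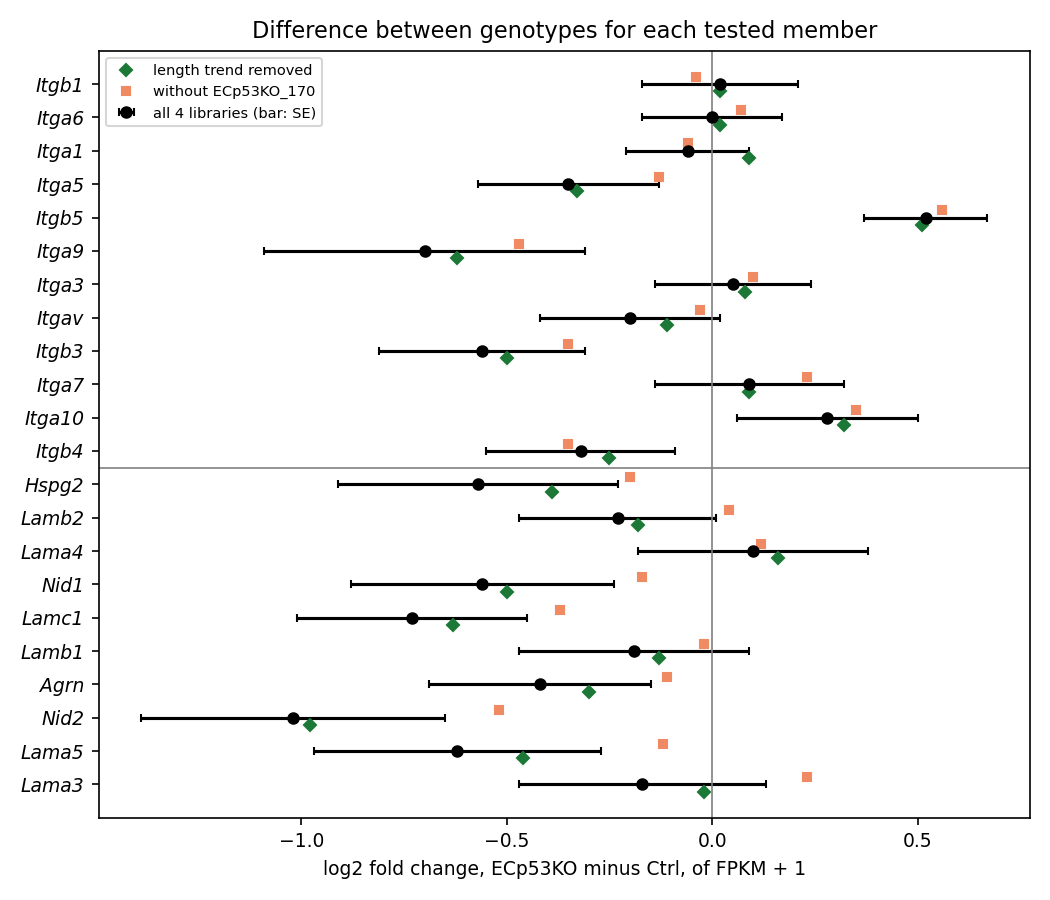
Log2 fold change of FPKM + 1 (ECp53KO minus Ctrl) for the 22 tested members, integrin subunits above the line and matrix genes below it. Black circles with SE bars use all 4 libraries, green diamonds have each library's length trend removed, and orange squares leave out ECp53KO_170. Itgb5 stays near 0.5 in all 3, while Lama5 goes from -0.62 to -0.12 without ECp53KO_170.

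The order of the libraries was much the same across the matrix genes. ECp53KO_170 was the lowest of the 4 libraries in 9 of the 10 tested matrix genes, and Ctrl_178 the highest in 7. Over all tested genes ECp53KO_170 was lowest in 30.8% and Ctrl_178 highest in 23.6%. The matrix genes summed to 683, 1050, 1343 and 1014 FPKM in ECp53KO_170, ECp53KO_172, Ctrl_178 and Ctrl_182, and the integrins to 644, 658, 682 and 635 FPKM. Thus ECp53KO_172 was close to Ctrl_182 in matrix level. Taken gene by gene, ECp53KO_172 was below both controls in 3 of the 10 matrix genes (Lamc1, Nid2 and, by under 1 FPKM, Lama5), between them in 6 and above both in 1. Of all tested genes 33.5% lay below both controls in this library.

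Medians over all tested genes fell with transcript length in ECp53KO_170, from 0.334 under 1500 nucleotides to -0.217 above 6000. They rose in Ctrl_178 (-0.0816 to 0.0625), Ctrl_182 (-0.103 to 0.0838) and ECp53KO_172 (-0.164 to 0.0972). Each library was set against the mean of the other 3, so these trends are not independent of each other. The longest annotated transcripts of the 10 matrix genes had a median of 6857 nucleotides (4876 to 14187), against 3276 over all tested genes, and those of the 12 integrins a median of 4953. The median shift of the matrix genes in ECp53KO_170 from the other 3 libraries was -0.79 on the log2 scale, and -0.46 once each library's trend with length over all genes was removed. In Ctrl_178 the same shift was 0.57 before and 0.51 after. With the trend removed, the matrix median fold change was -0.35 in place of -0.49, and that of the integrins 0.02 in place of -0.03. Among the longest matrix transcripts, the shift in ECp53KO_170 was -0.88 for Hspg2 (14187 nucleotides), -1.08 for Lama5 (11388), -0.64 for Lama3 (10548) and -0.70 for Agrn (8612). For Nid2, the shortest of the 10 (4876), it was -1.34, and for the integrin Itga1 (10967) it was -0.04. The part of the cardiomyocyte and erythroid RNA in these shifts was not tested.

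**Figure D3:**
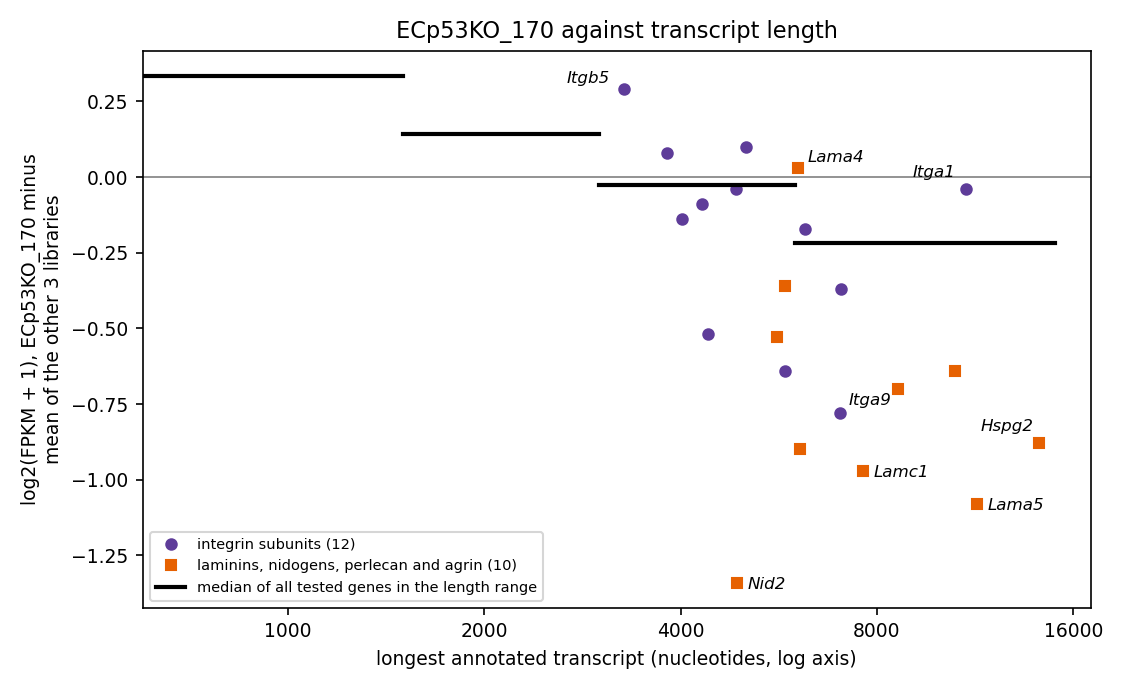
Log2(FPKM + 1) in ECp53KO_170 minus the mean of the other 3 libraries, against the longest annotated transcript on a log axis, for 12 integrin subunits (purple circles) and 10 matrix genes (orange squares). Black lines give the median over all tested genes in 4 length ranges, from 0.334 under 1500 nucleotides to -0.217 above 6000, and 9 of the 10 matrix genes lie below the line of their range.

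A scaling factor of the library cancels in a linear ratio of FPKM, though not fully on the FPKM + 1 scale used for the log2 differences, and 12 ratios were set up for chains that share a trimer, a dimer or a function. With 2 libraries in each group an exact permutation test cannot give a two-sided p below 0.333, so none could pass. The groups did not overlap in 7 of the 12 (exact permutation p = 0.333 each, 0.571 after adjustment over the 12). Over all tested genes, levels were lower without overlap in 16.8% and higher in 19.1%, and no such share was taken over ratios of other genes. Several of the 12 ratios share Lamc1, Itgav or Itgb1, so they are not independent. A trend with transcript length does not cancel between genes of unlike length, and no ratio was recomputed with that trend removed. The ratio of Itgb5 to Itgav was 11.0 and 8.33 in ECp53KO and 5.26 and 5.53 in Ctrl, a log2 difference of 0.72 on FPKM + 1 (0.83 with no pseudocount). In ECp53KO_170, Itgb5 (3282 nucleotides) was shifted by 0.29 from the other libraries and Itgav (7054) by -0.37. With the trend removed, the log2 fold changes were 0.51 for Itgb5 and -0.11 for Itgav. The ratio of Itgb3 to Itgav was 0.463 and 0.547 in ECp53KO against 0.756 and 0.788 in Ctrl, a log2 difference of -0.35 (-0.62 with no pseudocount). Relative to Itgav, Itgb5 and Itgb3 therefore lay on opposite sides of the controls in both ECp53KO libraries. Itgb1, also set against Itgav among the 12 ratios, overlapped between the groups (log2 fold change 0.02).

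Relative to their shared gamma chain, Lama4 and Lamb1 were higher in both ECp53KO libraries. The ratio of Lama4 to Lamc1 was 2.04 and 1.27 in ECp53KO and 1.06 and 0.770 in Ctrl, and that of Lamb1 to Lamc1 was 1.34 and 1.03 against 0.916 and 0.704. The ratio of Nid1 to Nid2 was 2.33 and 1.98 in ECp53KO and 1.57 and 1.54 in Ctrl. Among the integrins, 2 further ratios were lower in both ECp53KO libraries. That of Itga1 to Itgb1 was 0.1753 and 0.1896 in ECp53KO and 0.195 and 0.1903 in Ctrl, a log2 difference of only -0.08. That of Itga5 to Itga6 was 0.185 and 0.227 against 0.292 and 0.236 (-0.35). The groups overlapped in the ratio of Itga6 to Itgb1, at 0.545 and 0.649 in ECp53KO and 0.597 and 0.607 in Ctrl. They also overlapped for Itga5 and Itgav to Itgb1.

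**Figure D4:**
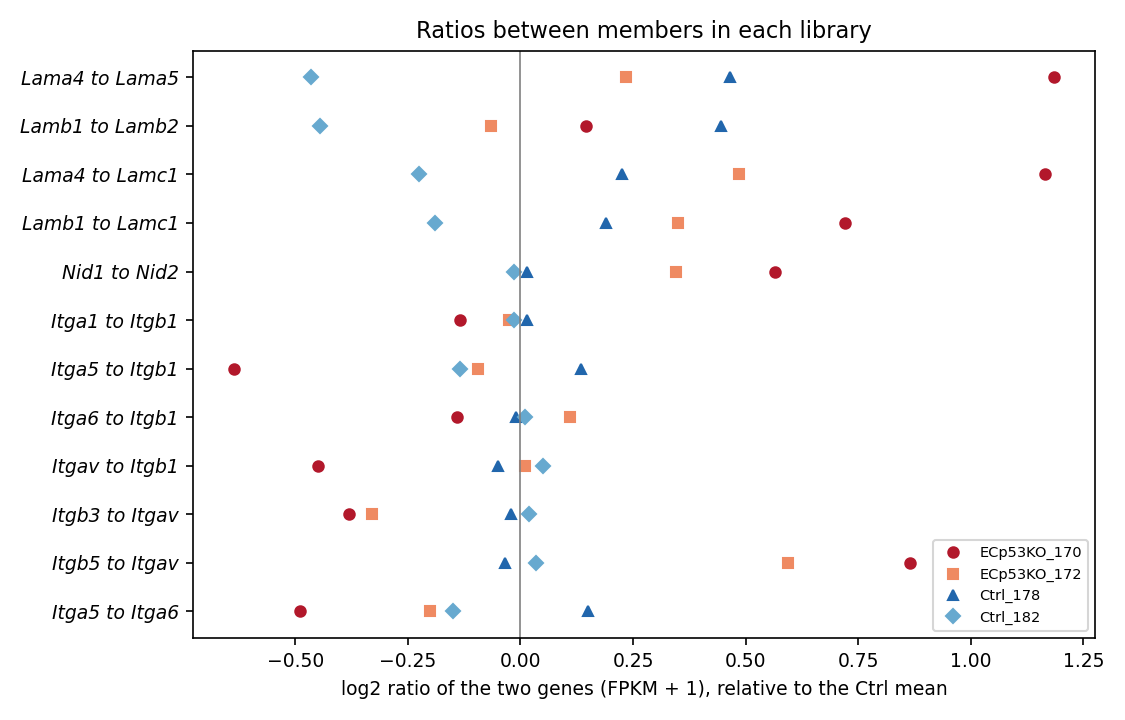
Log2 ratio of pairs of members (FPKM + 1) in each library, relative to the mean of the 2 Ctrl libraries, with 1 symbol for each library. Itgb5 to Itgav, Nid1 to Nid2 and Lama4 to Lamc1 are higher in both ECp53KO libraries than in both controls, and Itga6 to Itgb1 lies close to 0 in all 4.

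The remaining 15 members did not reach a mean of 1 FPKM and were not tested. Itga2 (0.373 to 1.03 FPKM), a collagen receptor chain, Itga2b (0.376 to 1.05 FPKM), the platelet alpha chain, and Lama2 (at most 0.710 FPKM), the laminin chain of muscle fibres, were the highest of them. Itga4, Itga8, Itgb2 and Itgb7 were at 0 to 0.493 FPKM. The other 8 (Itga11, Itgal, Itgam, Itgb6, Itgb8, Lama1, Lamb3 and Lamc3) stayed under 0.2 FPKM in every library, and 10 of the 15 were listed at 0 in at least 1. On a transcript of 8 kb, 1 fragment is worth an estimated 0.00556 to 0.0127 FPKM at these depths, so such values rest on few fragments, and a listed 0 can also be a failed estimate. The leukocyte chains Itgal, Itgam and Itgb2 went with a low sum of the 12 leukocyte markers (8.37 to 16.6 FPKM), in which Cd3e was at 0 in all libraries and Ptprc at 0 to 0.108 FPKM.

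The promoters of 3 members are shown. Itgb5 was higher and Lama5 lower in both ECp53KO libraries. For Lama5 the gap was small in ECp53KO_172 (40.8 against 41.5 FPKM in Ctrl_178), and the log2 fold change was -0.12 without ECp53KO_170. Nid1, whose groups overlapped, holds a match to the p53 half-site, the sequence bound by a pair of p53 subunits. The windows run from 250 bases before to 50 after the annotated start, 5′ to 3′ on the gene's strand, from RefSeq on GRCm38.p6. Capitals mark GC boxes (GGGCGG on either strand) and, in Nid1, also the half-site at bases 12 to 21. Itgb5 lies at chr16:33829415-33829714 (+), Lama5 at chr2:180225810-180226109 (-) and Nid1 at chr13:13437352-13437651 (+).
Itgb5: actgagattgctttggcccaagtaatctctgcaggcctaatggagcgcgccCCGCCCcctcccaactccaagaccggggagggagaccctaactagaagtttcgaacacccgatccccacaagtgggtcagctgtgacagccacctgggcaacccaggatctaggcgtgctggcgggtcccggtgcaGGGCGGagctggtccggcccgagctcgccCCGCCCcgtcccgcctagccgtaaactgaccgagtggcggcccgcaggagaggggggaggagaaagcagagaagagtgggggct
Lama5: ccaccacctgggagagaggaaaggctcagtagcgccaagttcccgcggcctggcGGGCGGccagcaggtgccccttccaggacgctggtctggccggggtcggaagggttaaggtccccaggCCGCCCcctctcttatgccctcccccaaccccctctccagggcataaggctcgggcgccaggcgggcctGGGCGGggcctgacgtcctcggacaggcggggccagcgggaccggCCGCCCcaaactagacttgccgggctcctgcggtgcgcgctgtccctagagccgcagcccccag
Nid1: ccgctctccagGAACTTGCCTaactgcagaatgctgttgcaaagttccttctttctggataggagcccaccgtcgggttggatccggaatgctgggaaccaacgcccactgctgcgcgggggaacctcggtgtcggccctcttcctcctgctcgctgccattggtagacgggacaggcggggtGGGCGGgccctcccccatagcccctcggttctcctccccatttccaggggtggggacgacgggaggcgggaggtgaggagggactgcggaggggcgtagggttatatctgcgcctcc

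These windows hold 3, 4 and 1 GC boxes and no TATAAA on either strand. RefSeq's table gave 29 windows for 25 of the 37 members. A GC box was found in 16 of the 29 (55.2%), against 35.7% of all 32851 windows, and TATAAA in 0 against 13.6%. The p53 half-site was found in 2 (Itga9 and Nid1), or 6.90% against 8.36% of all windows. Neither Itga9 nor Nid1 passed the test, and in both the groups overlapped.

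The wider machinery was read from 5 lists of genes, with 0 members of any list called by limma in either direction. Of 23 other basement membrane genes, 11 were tested and all 11 had negative fold changes (median -0.47), 5 without overlap. Over all tested genes 5475 of 11332 were negative and 16.8% lower without overlap. The list summed to 2680 and 3228 FPKM in ECp53KO, against 4988 and 3626 FPKM in Ctrl. ECp53KO_170 was thus lowest and Ctrl_178 highest, as in the sums of the matrix genes, and the dependence of this list on single libraries was not tested. The most abundant was Sparc, a collagen-binding matrix protein, at 1190 and 1007 FPKM in ECp53KO, against 1807 and 1195 FPKM in Ctrl. Its groups did not overlap, but ECp53KO_170 and Ctrl_182 were nearly equal. Pxdn, the peroxidasin that cross-links collagen IV, stood at 82.3 and 100.2 against 157 and 118 FPKM (log2 fold change -0.58 ± 0.22 SE; limma adjusted p = 0.864, unadjusted p = 0.0429). Smoc1, a calcium-binding matrix protein, stood at 0.824 and 0.918 against 1.92 and 2.62 FPKM (log2 fold change -0.80 ± 0.24 SE; limma adjusted p = 0.864, unadjusted p = 0.0207).

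Inside the cell, 26 of 31 genes of the integrin adhesion complex were tested. Their median fold change was -0.10, with 16 negative and 10 positive, 3 lower and 2 higher without overlap, and Lims2, an adaptor of the integrin-linked kinase complex, as the most abundant at 582 to 680 FPKM. Other matrix receptors and their partners had a median of 0.06 (16 tested, 3 lower and 1 higher without overlap), and integrin ligands outside the basement membrane a median of 0.07 (12 tested, 3 lower and 0 higher). Proteases and inhibitors that act on the basement membrane had a median of -0.30, with 12 of 16 negative and 7 lower without overlap. The shares of all tested genes without overlap, beside which these 4 lists stand, were 16.8% lower and 19.1% higher. The most abundant gene of the last list, the metalloprotease inhibitor Timp4, overlapped at 592 and 519 FPKM for ECp53KO and 473 and 1074 FPKM for Ctrl. Adamts1, a metalloprotease, stood at 137 and 144 FPKM in ECp53KO, against 198 and 181.8 FPKM in Ctrl. Plaur, the urokinase receptor, stood at 14.7 and 19.7 against 28.2 and 23.7 FPKM.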

How the data were processed

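RNA of sorted heart endothelial cells was measured in 2 ECp53KO and 2 Ctrl libraries. Per the labels' protocols, poly-A RNA was made into unstranded libraries and sequenced in pairs. The build was mm10, and the tools listed were TopHat2 2.1.0, Cufflinks 2.2.1, Trimmomatic 0.36, FastQC 0.11.5 and bcl2fastq 2.17, per the submitters' processing notes, which state no roles. Annotation and filters: not given in the sources used here. Since the values deposited by the authors are FPKM, limma replaced a count model.

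Every gene whose mean reached 1 FPKM was fitted as log2(FPKM + 1) with limma 3.58.1 in R 4.3.3 (intensity trend, two-sided, no covariate, Benjamini-Hochberg over all 11332 genes, threshold 0.05). The fit has 2 residual degrees of freedom, and the shared variance adds 3.15. The script was tested on simulated data. Fold changes on this scale understate those of low genes. Depth was estimated from the smallest frequent step of FPKM times transcript length in 1063 low genes with a single transcript over 2000 nucleotides. Lengths are the longest GENCODE M21 transcript, and length trends were removed by lowess. Positions and promoters are RefSeq's for GRCm38.p6. Exons of 6 tested members (Itga7, Itgav, Itgb4, Lama3, Nid1 and Nid2) overlap an opposite-strand gene, whose reads cannot be told apart. Those of the tested Itga1 and Itga10 overlap a same-strand gene (Gm49395 over 685 and Gm42957 over 1739 nucleotides). The part of such overlaps in the levels was not tested.

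The members, lists, tests and alternatives were chosen with earlier results of these data known. All 37 members are named. By rule, full values are given for the 14 with a mean of at least 10 FPKM and for any other tested member with an unadjusted p under 0.05, and shorter values for the rest. In other lists the most abundant gene and up to 4 with an unadjusted p under 0.05 could be named.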

Additional observations from a re-analysis of the deposited data

How the results depend on the processing

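No member was called under any of the 13 alternatives (a pseudocount of 0.1, no filter or a mean of at least 5 FPKM, robust shrinkage, TPM, quantile normalization, no small RNA loci, no length trend, Xist as a covariate, and each library left out in turn). The lowest limma adjusted p of any member was 0.305, shared by Lama5, Lamc1, Nid1 and Nid2 without ECp53KO_172. No paired analysis was possible because no replicate number occurs in both genotypes. The median over members lay between -0.38 and -0.05. In place of 7, the count of members lower without overlap was 11 with no filter (37 tested), 4 at a mean of at least 5 FPKM (17 tested), 4 as TPM, and 7 to 18 on leaving out a library, which leaves 1 library in a group. In place of 2, the count of members higher without overlap was 1 at a mean of at least 5 FPKM and 3 to 5 on leaving out a library. The counts at an unadjusted p under 0.05 were 2 lower and 1 higher. The 2 became 0 with no filter and 1 at a mean of at least 5 FPKM, as TPM, with quantile normalization and with Xist as a covariate, and the 1 became 0 as TPM. For these counts and those without overlap, the share of all tested genes was not taken under the alternatives. The matrix median ranged from -0.84 to -0.11 on leaving out a library and was -0.21 with no filter.

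Rescaling to TPM moved the median of all tested genes from 0.01 to -0.10 and turned the sign of Itga3 (-0.05), Itga6 (-0.12), Itgb1 (-0.10) and Lama4 (-0.02). Quantile normalization turned Itga6 (-0.04) and Itgb1 (-0.02). Removing the length trend turned Itga1 (0.09) and the integrin median (0.02), which was 0.00 at a mean of at least 5 FPKM. Leaving out a library turned the sign of Itga3 (-0.09 to 0.19), Itga6 (-0.07 to 0.07), Itga7 (-0.06 to 0.23), Itgb1 (-0.04 to 0.07), Lama3 (-0.56 to 0.23), Lama4 (-0.28 to 0.47), Lamb1 (-0.53 to 0.14) and Lamb2 (-0.51 to 0.04). It also turned the differences in the log2 ratio of Lamb1 to Lamb2 (-0.40 to 0.48), Itga6 to Itgb1 (-0.14 to 0.11) and Itgav to Itgb1 (-0.45 to 0.01). The cause was not tested. Trp53 had log2 fold changes of -3.62 to -2.79 and passed with robust shrinkage (limma adjusted p = 0.0412), without small RNA loci (0.0127) and with Xist as a covariate (0.0208). With 2 libraries a group and 2 residual degrees of freedom, the intervals were wide. The 95% interval of the log2 fold change of Itgb1 was -0.46 to 0.49. Even Trp53, at -3.20 (95% interval -4.12 to -2.28), was not called in the main fit (limma adjusted p = 0.146). The absence of a call therefore does not show that a member was unchanged.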
